A study of Mus musculus with 4 samples.

Results

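Bone morphogenetic proteins (BMPs) are secreted ligands that bind pairs of type I and type II receptor kinases. The activated type I receptor phosphorylates SMAD1 and SMAD5, which enter the nucleus with SMAD4 and switch on target genes, among them the Id genes, whose products block basic helix-loop-helix transcription factors. In the early eye, BMP4 and BMP7 are known for roles in the optic vesicle and in lens and dorsal retina formation. N6-methyladenosine (m6A), a methyl mark on adenosine of mRNA, is written mainly by METTL3 and tends to lie near the ends of coding regions and in 3′ untranslated regions.

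The set comprised the ligands Bmp4 and Bmp7, the type I receptor Bmpr1a, the type II receptor Bmpr2, the signal carriers Smad1 and Smad5, the inhibitory Smad7 and the targets Id1, Id2 and Id3. Members were the listed sites that lay inside the deposited span, and on the strand, of one of these genes. Of the 10 genes, 9 were found, and Smad5 was not analysed here. They held 650 of the 881997 positions listed in at least 1 library. Per library, 159 and 193 of these sites were listed in wild-type replicates 1 and 2, and 180 and 175 in knockout (KO) replicates 1 and 2; values below keep that order.

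The libraries came from day 4 mouse retinal organoids, tissue grown from pluripotent stem cells. The wild type was the Rx:GFP line, which carries a green fluorescent reporter of the eye field gene Rax. The KO was a Mettl3 KO Rx:GFP line, which per the labels' protocols also carries HA-METTL3 under doxycycline control. There were 2 libraries of each genotype, treatment is labelled "No" in all 4, and all 4 share 1 batch label. Both lines grew in GMEM with 5% KSR and 0.1 µM AGN. Each genotype is thus represented by 1 line, and how many clones, cultures or organoid pools stand behind the libraries is not given, so p-values measure only the spread between these samples. In GLORI, unmodified adenosine is deaminated and read as G, while m6A is still read as A. The level of a site is the share of its A or G reads that are A, and coverage is the number of those reads. A site entered a list only with at least 15 reads, at least 5 A reads and a level of at least 0.1.

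The libraries listed 215850 to 288516 sites with a median coverage of 38 to 41 reads. Mettl3 itself was covered 1.01 and 0.801 times as deeply as the library's median gene in the libraries labelled wild type and 1.16 and 1.04 times in those labelled KO (log2 change 0.29 ± 0.18, SE; limma adjusted p 0.348). Its coverage was thus not lower in the KO. One value per gene does not show which part is deleted and could include reads from the HA-METTL3 transgene, so it gave no check of the genotype labels, and wild type and KO below are as labelled. Of 8 eye field and anterior neural marker genes, 5 had a deposited gene coverage in all 4 libraries, and 3 of these fell in the KO. The others, Pax6 and Sox1, were not called (log2 change 0.12 ± 0.17 and -0.16 ± 0.17, SE, limma adjusted p 0.727 and 0.630). Summed over all 5, coverage in the wild type was 30.1 and 32.3 times that of the median gene of the same library. In the KO it was 8.34 and 7.97 times. Rax itself had 20 and 35 listed wild-type sites against 0 and 0 KO sites. Of 8 pluripotent and epiblast markers, 4 had such a coverage, and 3 fell, from a summed 5.57 and 6.00 to 3.70 and 3.0 times the median gene. Of 6 midbrain and posterior neural markers, 3 had one, 1 of which rose (Wnt1), with wild-type sums of 2.41 and 2.05 and KO sums of 3.62 and 3.86. The sums for non-neural ectoderm markers (3 of 8 with a value, 1 of which fell) were 3.35 and 3.31 against 3.94 and 3.61, and the 1 neural crest marker of 5 with a value had 0.772 and 0.644 against 0.709 and 0.616. No mesoderm or endoderm marker of 8 had a coverage value in all 4 libraries, and 5 of them, T and Sox17 included, had no listed site in any library.

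The clearest m6A in the set lay in the Id genes and in Bmpr1a, and it was listed in the wild type and hardly in the KO. Id1 (ENSMUSG00000042745, chromosome 2, 152578171 to 152579330, plus strand) carried the deepest of the sites at high level, 209 bases from its 3′ end at position 152579121. There 879 of 979 reads were unconverted in wild-type replicate 1 (level 0.898, Wilson 95% interval 0.877 to 0.915) and 964 of 1159 in replicate 2 (level 0.832, interval 0.809 to 0.852). Neither KO library listed it. From the site's wild-type coverage and the gene's coverage in each library, the KO libraries were expected to have 843 and 857 reads there, and at that depth a level of 0.101 or 0.100 would have been listed. A nearby Id1 site at position 152579176, 154 bases from the end, read 0.202 and 0.141 at wild-type depths of 2332 and 2153 reads and was likewise in neither KO list, with 1755 and 1784 reads expected. At these positions the wild-type libraries were both above the level at which a KO site would have met the known limits. At each position the Wilson intervals of the wild-type replicates did not overlap, so the replicates differed by more than counting error.

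Id3 (ENSMUSG00000007872, chromosome 4, 135870808 to 135873066, plus strand) had 2 sites of this kind. At position 135872441, 625 bases from the 3′ end, the wild-type levels were 0.785 at 307 reads and 0.830 at 224 reads. At position 135872575, 491 bases from the end, they were 0.510 at 730 reads and 0.530 at 820 reads, and at both positions the intervals of the replicates overlapped. Neither was in a KO list, where 195 and 154 reads were expected at the former and 574 and 455 at the latter. By contrast, a weak Id3 site at position 135872312 had wild-type levels of 0.122 (1040 reads) and 0.115 (1026 reads), and KO replicate 2 listed it at 0.102 with 725 reads. KO replicate 1 did not list it, where a level of 0.101 would have met the known limits at the 763 reads expected. That site was close to the lower limit of the lists in every library that held it.

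Id2 (ENSMUSG00000020644, chromosome 12, 25143798 to 25147139, minus strand) had the most shared wild-type sites of the Id genes, 4, all between 283 and 700 bases from its 3′ end. The highest, at position 25144455, read 0.776 in wild-type replicate 1 (76 reads) and 0.919 in replicate 2 (223 reads). At this site too, the intervals of the replicates did not overlap. KO replicate 2 listed it at 0.133 with 45 reads (interval 0.0626 to 0.261), and KO replicate 1 did not list it at an expected 80 reads. Positions 25144498 and 25144081 had wild-type levels of 0.561 and 0.724, and of 0.508 and 0.650, and were in neither KO list, at expected coverages of 131 and 95 reads and of 60 and 43 reads. Position 25144359, chosen after its values were seen, was listed once in each genotype, at 0.984 with 64 reads in wild-type replicate 2 and at 0.116 with 43 reads in KO replicate 1. At the 2 Id2 positions listed in both genotypes, the KO levels were thus far below the wild-type ones, each from 1 KO library.

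Bmpr1a (ENSMUSG00000021796, chromosome 14, 34132691 to 34225298, minus strand), whose product is the type I receptor that phosphorylates the BMP Smads, held 233 of the 650 sites over a span of 92608 bases. Its highest shared site was at position 34136212, 3521 bases from the 3′ end, with levels of 0.625 at 160 reads and 0.683 at 221 reads in the wild type. Neither KO library listed it, although 173 and 133 reads were expected and levels of 0.104 and 0.105 would have met the known limits. The next highest were at positions 34135739 (0.310 and 0.235) and 34134401 (0.142 and 0.259), again in neither KO list, with expected KO coverages of 88 reads or more. All 6 Bmpr1a sites shared by the wild-type libraries were absent from both KO lists. Another 8 Bmpr1a sites were listed in 1 library of each genotype, at levels of 0.101 to 0.235 in the wild type and 0.103 to 0.294 in the KO. The KO level was the higher at some of these, as at position 34144701 (0.132 against 0.284), and the lower at others, as at position 34135666 (0.185 against 0.129).

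**Figure D1:**
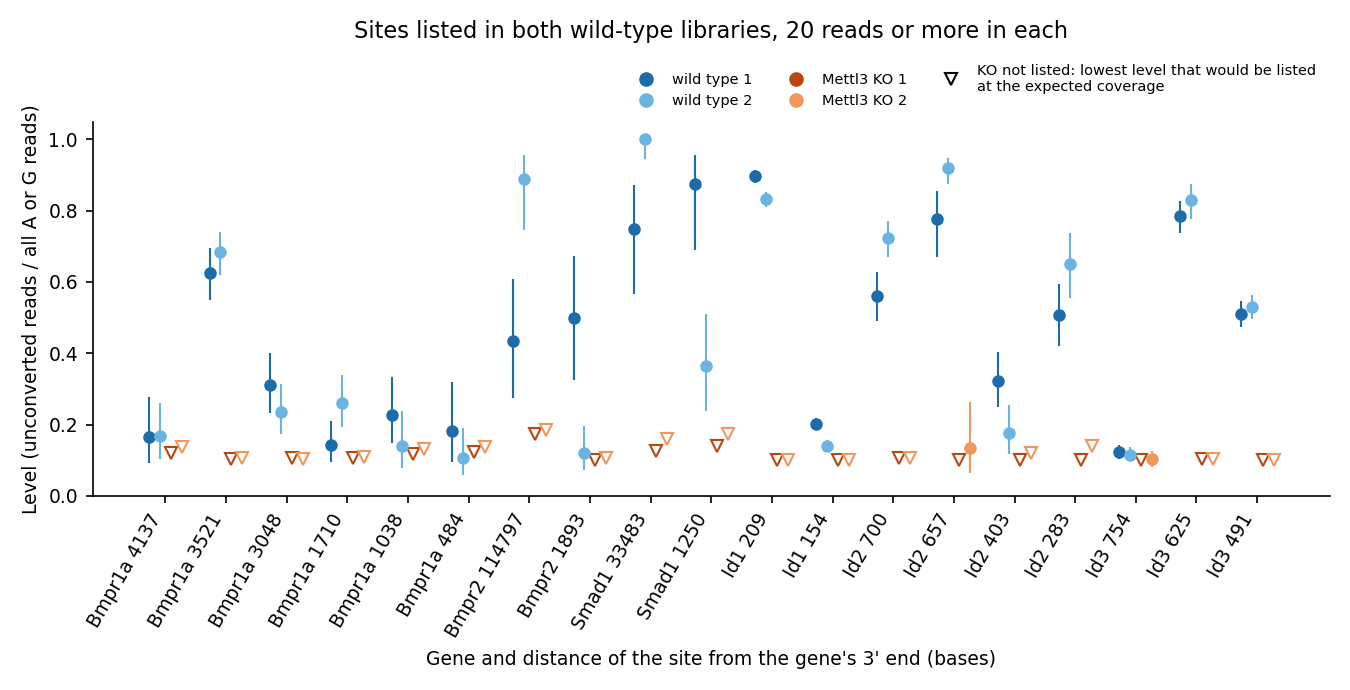
Level (y axis, 0 to 1) at each member site listed in both wild-type libraries with 20 reads or more in each, named by gene and distance from the gene's 3′ end (x axis). Filled points are listed levels with Wilson 95% intervals for counting error. Open triangles mark a KO library that did not list the site. They stand at the lowest level that would have met the known limits of the lists at the expected coverage. The only filled KO points are at Id2 657 (0.133) and Id3 754 (0.102).

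The other genes gave few shared sites, and those they gave rested on less depth. Bmpr2 (ENSMUSG00000067336, chromosome 1, 59802559 to 59918173, plus strand), the type II receptor, had 2 sites in both wild-type lists. They read 0.433 and 0.889 at position 59803376 with 30 and 36 reads, and 0.50 and 0.120 at position 59916280 with 28 and 108 reads. Smad1 (ENSMUSG00000031681, chromosome 8, 80065024 to 80126147, minus strand), which carries the signal to the nucleus, also had 2, at position 80098507 (0.750 and 1.00, 28 and 65 reads) and position 80066274 (0.875 and 0.364, 24 and 44 reads). At all 4 of these sites the Wilson intervals of the wild-type replicates did not overlap, so the replicates differed by more than counting error. The same held for the named Id1 sites and the highest Id2 site above. In the KO only 27 to 60 reads were expected at any of the 4. None of the 4 was in a KO list.

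Bmp4, Bmp7 and Smad7 had no site with 20 reads in both wild-type libraries. Bmp7 (ENSMUSG00000008999, chromosome 2, 172709805 to 172782114, minus strand) shared 1 site, position 172711828, at 0.562 and 0.421 with 16 and 19 reads. Bmp4 (ENSMUSG00000021835, chromosome 14, 46620977 to 46628126, minus strand) had 1, 4, 0 and 5 sites in wild-type replicates 1 and 2 and KO replicates 1 and 2. The following sites of Bmp4 and Smad7 were chosen after their values were seen. In Bmp4, wild-type replicate 2 listed position 46621524 at 0.983 with 118 reads and position 46621503 at 0.703 with 101 reads. KO replicate 2 listed 46621503 too, at 0.443 with 70 reads, and not 46621524, where 110 reads were expected. Smad7 (ENSMUSG00000025880, chromosome 18, 75500600 to 75529006, plus strand), an inhibitory Smad induced by the pathway, shared no site between the wild-type libraries. Position 75501430 of Smad7 was listed at 0.892 in wild-type replicate 2 and at 0.833 in KO replicate 2, with 37 and 36 reads. Smad7 sites with a level of at least 0.3 and at least 50 reads numbered 2 and 1 per wild-type library and 3 and 0 per KO library. Position 75502424, for instance, read 1.00 with 50 reads in wild-type replicate 1 and 0.521 with 96 reads in KO replicate 1. High Smad7 levels were thus listed in both genotypes.

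Over the set, 19 sites were in both wild-type lists with at least 20 reads in each, and 17 of them (89.5%, Wilson 95% interval 68.6% to 97.1%) were in neither KO list. The same count over all protein-coding genes was 18041 of 21627 sites, or 83.4% (82.9% to 83.9%), which lies inside the set's interval. Where both KO libraries were expected to reach 50 reads, 12 of 14 sites were absent in the set and 10200 of 12606 (80.9%) overall. Asking also for a wild-type mean of 0.3 or more left 7 sites, of which 6 were absent from both KO lists, against 3954 of 4644 (85.1%) overall. The interval of the set is wide and holds the share of all genes at each of these settings. No member site was in all 4 lists, so none entered the edgeR quasi-likelihood test of levels, in which 40 of 1557 sites (2.57%) were lower in the KO and 0 were higher. At an unadjusted p under 0.05 that test had 90 lower and 30 higher sites, and DESeq2 called 46 lower and 5 higher.

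The KO lists also held sites of their own, and these recurred without the wild type. Of 10 sites in both KO lists with at least 20 reads in each, all 10 were in neither wild-type list; over all protein-coding genes the share was 6245 of 8567, or 72.9%, just inside the set's Wilson interval of 72.2% to 100%. With an expected wild-type coverage of at least 50 it was 5 of 5 against 3618 of 5326 (67.9%). Id1 had 3 of the 10. At position 152578975, 355 bases from the 3′ end, the KO levels were 0.326 at 86 reads and 0.281 at 57 reads. At position 152578472, 858 bases from the end, they were 0.277 at 83 reads and 0.144 at 90 reads. The wild-type libraries were expected to have 96 and 85 reads at the former and 116 and 103 at the latter. Levels of 0.112 to 0.129 would have met the known limits of the lists. These KO levels were lower than those of the high Id1 site of the wild type.

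Counts of all sites overlapped between the genotypes, while counts of deep sites at high level did not. The set had 176.0 ± 24.0 sites per wild-type library and 177.5 ± 3.54 per KO library (SD, n = 2 each; two-sided exact permutation p = 1.00), and its median level was 0.246 ± 0.0240 and 0.221 ± 0.0152 (exact permutation p = 0.667). Sites with a level of at least 0.3 and a coverage of at least 50 numbered 14 and 21 per wild-type library and 5 and 6 per KO library, a ratio of the means of 0.314. Both KO counts were below both wild-type counts (exact permutation p = 0.333, the smallest that 2 against 2 libraries can give). The ratio over all protein-coding genes was 0.441. With the level raised to 0.5 there were 8 and 16 wild-type and 2 and 1 KO sites, a ratio of 0.125. Over all protein-coding genes the genotypes did not overlap at that level either, with 4519 and 6546 against 1184 and 1627 sites, a ratio of 0.254. The Id genes gave 10 and 9 of the wild-type sites at 0.3 or more and 1 and 2 of the KO sites. The 2 receptors gave 2 and 6 against 1 and 0, and Smad1 with Smad7 gave 2 and 3 against 3 and 2, so the genotypes overlapped in the Smads. The Id counts also depend on the limit of 50 reads. Median coverage of listed Id2 sites was 84.0 and 103 reads per wild-type library against 29.0 and 26.0 per KO library. It was lower for KO libraries in Id1 too, while in Id3 the genotypes overlapped. Id2 supplied 4 and 5 of the wild-type Id sites and 0 and 0 of the KO ones. How far the depth limit lowered the KO counts was not tested.

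Such deep high sites were found again in part, and in few cases in the KO. Of the 14 in wild-type replicate 1, 9 were also in the list of replicate 2 (64.3%, interval 38.8% to 83.7%), and of the 21 in replicate 2, 8 were in that of replicate 1. Of the 5 in KO replicate 1, 1 was in the list of KO replicate 2, and of the 6 in KO replicate 2, none was in that of KO replicate 1. In a list of the other genotype, 3 of the 14 and 3 of the 21 wild-type sites were found (21.4% and 14.3%). For the KO these were 2 of the 5 and 1 of the 6 sites (40.0% and 16.7%). Over all protein-coding genes the shares were 13.2% and 11.7% for the wild type and 13.5% and 14.7% for the KO, so those of the set were not lower. A count of 0 of 6 leaves a share of up to 39.0% within its Wilson interval. For all protein-coding genes together, 5261 of 11287 and 6199 of 16296 such wild-type sites were found again, and 7.38% and 8.69% of the KO sites. Taken over any level, 595 of the 650 sites (91.5%) were in 1 library only, against 92.0% of sites in all protein-coding genes.

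**Figure D2:**
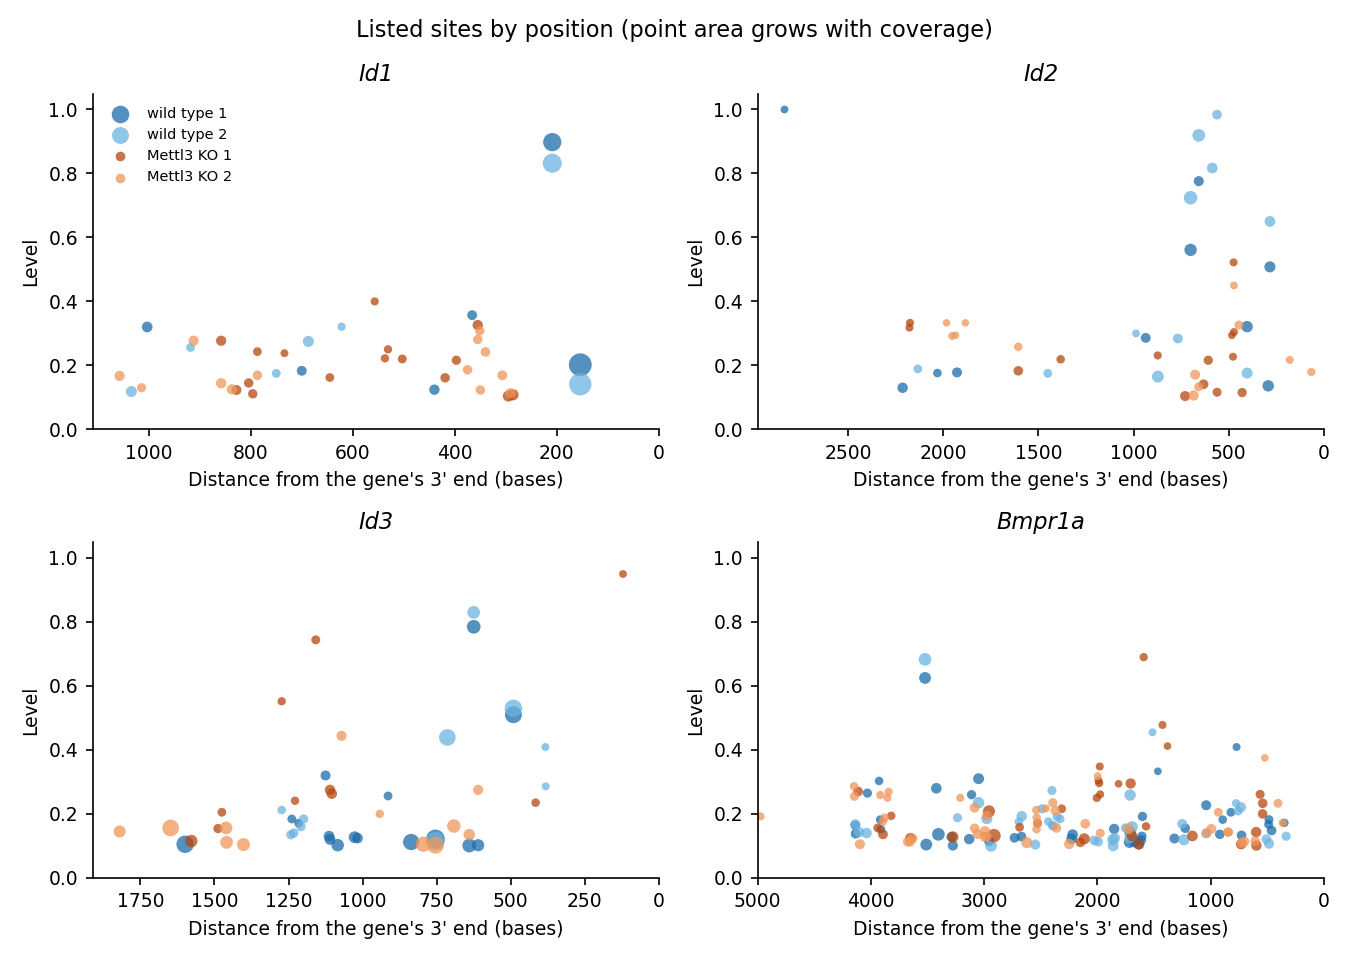
Level (y axis) against distance from the gene's 3′ end (x axis, in bases, 3′ end at the right) of every listed site of Id1, Id2 and Id3 and of the Bmpr1a sites within 5000 bases of the end, with 1 point per site and library and a point area that grows with coverage. Large wild-type points stand both high, as at 0.898 and 0.832 in Id1, and low, as at 0.202 and 0.141 in Id1 and 0.122 and 0.115 in Id3, and no KO point with 50 reads or more is above 0.444, in Id3.

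The strong wild-type sites lay close to the gene ends. Of the 7 sites in both wild-type lists with a mean level of at least 0.3 and at least 50 reads in each, 6 were within 1000 bases of the gene's 3′ end, all of them in the short Id genes, and the Bmpr1a site was 3521 bases away. Over all protein-coding genes 1918 of 4693 such sites (40.9%) were that near. Id1, Id2 and Id3 span only 1160, 3342 and 2259 bases, so much of each gene lies within that distance. Of all 650 listed sites, 22.3% were within 1000 bases of the end, against 18.8% overall. The deposited intron mark was set at 72.0% to 76.7% of the set's sites per library, against 43.9% to 44.2% overall. It was set even at listed sites 89 bases from the 3′ end of Bmp7 and 332 bases from that of Bmpr1a. These shares are therefore not read as shares of intronic sites. The mark was set at the wild-type shared sites of Id2 and Bmpr1a and not at those of Id1, and whether a site is exonic or in an untranslated region was not analysed here.

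The conversion rate, the deposited share of a gene's adenosines that were read as G, covers the whole gene and not single listed sites. The wild-type rates of Id1 were 95.4% and 95.2%, and its KO rates 97.9% and 97.7%. In Id2 they were 95.5% and 94.6% against 97.6% and 97.0%, and in Id3 95.0% in both wild-type libraries against 96.4% and 95.8%. In each Id gene both KO libraries were above both wild-type libraries. This was so for 6 of the 8 members with a value in all 4 lists, and for 50.0% of all genes. On the log2 odds scale the difference was 1.12 ± 0.22 in Id1, 0.94 ± 0.24 in Id2 and 0.39 ± 0.22 in Id3 (SE; limma adjusted p 0.135, 0.145 and 0.367), against a median of 0.29 over 8268 genes. No member passed the threshold of 0.05, and of all genes 0 did (0%), while 1659 (20.1%) had an unadjusted p under 0.05 with a higher rate in the KO and 51 (0.617%) with a lower one. Of the members, Id1, Id2 and Bmpr2 had such an unadjusted p, all with the higher rate in the KO. Bmpr1a, with 96.7% and 96.9% in both genotypes, differed by 0.01 ± 0.21 (limma adjusted p 0.990). With the replicate number as a block, the only alternative in which a member was called, the limma adjusted p of Id1 was 0.0258; the same fit called 540 genes higher and 43 lower of 8268.

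The deposited coverage of the genes themselves changed in 1 of the 8 members that had a value in all 4 libraries. Id2 was covered 1.96 and 1.74 times as deeply as the median gene of the wild-type libraries, and 0.991 and 0.828 times as deeply as that of the KO libraries. The KO values were both below the lower wild-type value, with a log2 change of -1.03 ± 0.17 (SE; limma adjusted p 0.00903). Of all 8268 genes tested, 3.04% were lower, 2.55% higher and 5.59% either at the threshold of 0.05. Without centring of the libraries on the median gene the calls were 300 lower and 101 higher, against 251 and 211. The adjusted p was 0.0595 without KO replicate 1 and 0.0891 without KO replicate 2, with changes of -1.16 and -0.90. The 3 eye field markers that fell, as given above, did so in the same libraries, and their part in the Id2 result was not tested. In bulk samples, fewer cells of a type and less RNA per cell cannot be told apart.

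Id3 was the most deeply covered member, with wild-type coverage of 11.8 and 9.45 times, and KO coverage of 7.83 and 7.15 times, the median gene. Its groups did not overlap, as in 29.4% of all genes in that direction, and its change of -0.49 ± 0.18 (SE; limma adjusted p 0.123) did not pass. Id1, at 8.13 and 6.31 against 5.64 and 6.61 times, overlapped between the genotypes, with a change of -0.23 ± 0.18 (limma adjusted p 0.493). The order of the members' deposited coverage in the wild type was thus Id3, Id1, Id2, Bmpr1a and Smad1, with Bmp7, Bmp4, Smad7 and Bmpr2 below them, and the ranges of Id2 and Bmpr1a overlapped, as did those of the last 4. The unit of the deposited gene value is not stated in the file. In each library the median coverage of a gene's listed sites was 0.762 to 0.766 times that value (median over genes with at least 10 sites). Across 4 equal groups of genes by span it was 0.726 to 0.808 times. For the median gene the value was thus near the scale of reads per position and depended little on span. Id1 and Id3 were further from it. Median site coverage in Id1 was 96.0, 119, 52.5 and 62.0 reads against gene values of 408, 362, 301 and 306. In Id3 it was 172, 50.0, 41.0 and 224 against 591, 542, 418 and 331.

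Promoters of the Id genes are shown because Id2 was the member whose coverage fell and Id3 had the next lowest change. RefSeq's table (build GRCm38.p6) held 1 promoter each for Id2 and Id3 and no Id1 entry was matched. Capitals mark GGCGCC, a GC-rich motif bound by the BMP Smads, and CAGAC or its reverse complement GTCTG, the Smad box, searched on both strands; the motifs do not overlap each other.
Id2 (chr12:25096043-25096342, minus strand): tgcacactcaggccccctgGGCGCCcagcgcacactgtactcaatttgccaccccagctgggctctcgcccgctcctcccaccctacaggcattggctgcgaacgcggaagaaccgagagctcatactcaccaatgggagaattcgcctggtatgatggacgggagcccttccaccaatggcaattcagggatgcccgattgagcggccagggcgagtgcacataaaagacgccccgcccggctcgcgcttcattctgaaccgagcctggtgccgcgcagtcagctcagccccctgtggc
Id3 (chr4:136143572-136143871, plus strand): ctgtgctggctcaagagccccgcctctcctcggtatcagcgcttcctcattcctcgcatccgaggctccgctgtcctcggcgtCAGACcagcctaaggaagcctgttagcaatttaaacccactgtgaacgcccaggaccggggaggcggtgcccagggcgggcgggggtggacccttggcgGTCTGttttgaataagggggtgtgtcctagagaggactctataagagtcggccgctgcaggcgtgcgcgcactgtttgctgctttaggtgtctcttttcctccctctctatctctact
Within these 300 bases Id2 held 1 GGCGCC and 0 CAGAC, and Id3 held 0 GGCGCC and 2 CAGAC. Of 32851 promoters of the same length, 11.9% held GGCGCC and 49.6% held CAGAC on either strand. These matches describe the letters only. These coordinates belong to GRCm38 and are not on the scale of the site positions above.

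Ligand, receptor and Smad coverage gave no call. Bmp7 had wild-type coverage of 0.586 and 0.811 times the median gene and KO coverage of 0.789 and 1.09 times (log2 change 0.43 ± 0.21, limma adjusted p 0.255). Bmpr1a had 1.49 and 1.82 against 1.52 and 1.35 times, and Bmpr2 0.642 and 0.570 against 0.542 and 0.582 times. Smad1 had 0.909 and 1.17 against 1.13 and 1.04 times, and Smad7 0.667 and 0.564 against 0.683 and 0.614 times. The genotypes overlapped in all 5 of these genes, and the 4 after Bmp7 had changes between -0.20 and 0.08 with limma adjusted p from 0.543 to 0.841; the sign of Smad1 and of Smad7 turned without centring. Bmp4 had wild-type values of 0.609 and 0.727 times and 0.837 times in KO replicate 2, with no value in KO replicate 1. It was therefore not tested.

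**Figure D3:**
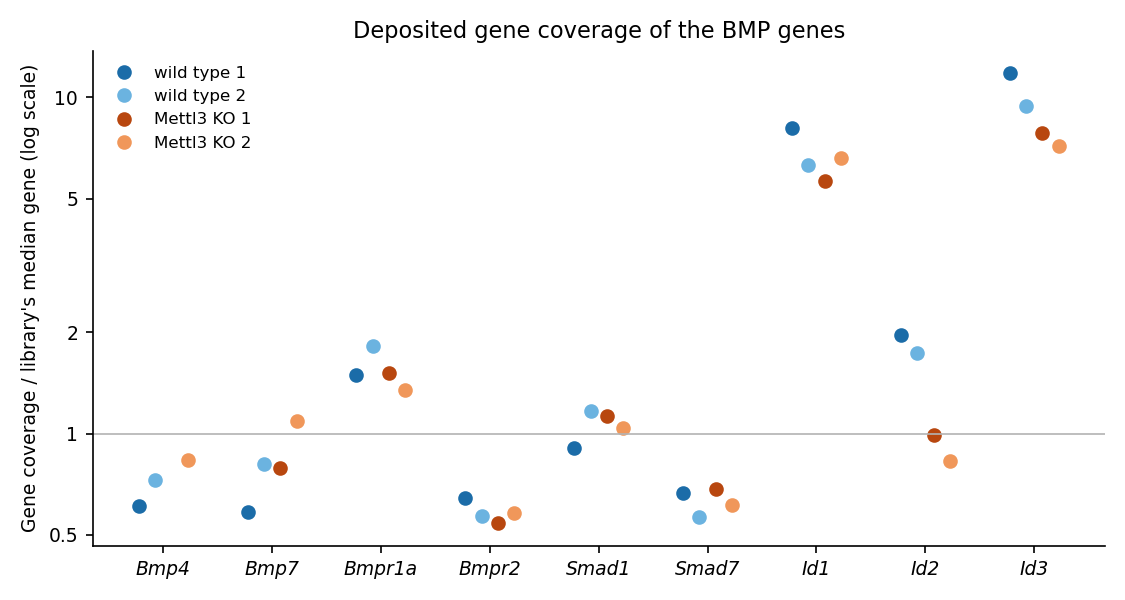
Deposited gene coverage divided by that of the library's median gene (y axis, log scale) for each member gene with a value (x axis), 1 point per library. Id2 stands at 1.96 and 1.74 for the wild type against 0.991 and 0.828 for the KO, while the genotypes overlap in Id1, the receptors and the Smads.

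Other genes of the pathway were taken from a list of 59 ligands, receptors, regulators, antagonists and targets. Of these, 26 had a coverage in all 4 libraries, of which 2 rose and 0 fell by limma's test, where 2.55% of all genes rose and 3.04% fell, with a median log2 change of 0.06 against -0.02 over all genes. Msx2, a homeobox target of BMP signalling, had a wild-type coverage of 0.551 and 0.421 times the median gene and a KO coverage of 1.16 and 1.09 times (log2 change 1.22 ± 0.18, limma adjusted p 0.00431). Bambi, a decoy receptor that BMP signalling induces, had 1.13 and 0.951 against 1.74 and 1.77 times (0.76 ± 0.17, limma adjusted p 0.0270). Both KO libraries were above both wild-type libraries in each, as in 24.7% of all genes. Leaving out single libraries moved the adjusted p of Msx2 between 2.09e-05 and 0.0785; it was above 0.05 when either KO replicate was left out. For Bambi it ranged from 0.0267 to 0.203, above 0.05 when any library other than wild-type replicate 1 was left out, and it was 0.109 without centring of the libraries.

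By role and among tested genes only, 0 of 2 ligands changed, 1 of 8 receptors and coreceptors rose (Bambi), and 0 of 10 Smads and regulators, 0 of 4 secreted antagonists and 1 of 2 targets (Msx2) did. The antagonist Noggin (Nog), for instance, changed by 0.27 ± 0.31 and the common Smad4 by -0.12 ± 0.17 (SE; limma adjusted p 0.649 and 0.735). The rest of the 59 genes were outside the test, some of them listed in 1 genotype only; the following were named after their values were seen. The antagonist Grem1 had 19 and 32 wild-type sites, with coverage of 0.820 and 0.795 times the median gene, against 0 and 0 KO sites. The ligand Bmp5 had 0 and 0 wild-type sites against 11 and 10 KO sites, with coverage of 0.523 and 0.482 times. Among the targets, Msx1 had 1 and 0 wild-type sites and 10 and 12 KO sites, and Id4 had 5 and 1 against 0 and 0. A gene with no listed site has no deposited value, so these differences were not tested. Among the tested targets, Id2 was thus called lower and Msx2 higher, while Id1, Id3 and Hey1 were not called. The response to BMP ligands was not measured.

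**Figure D4:**
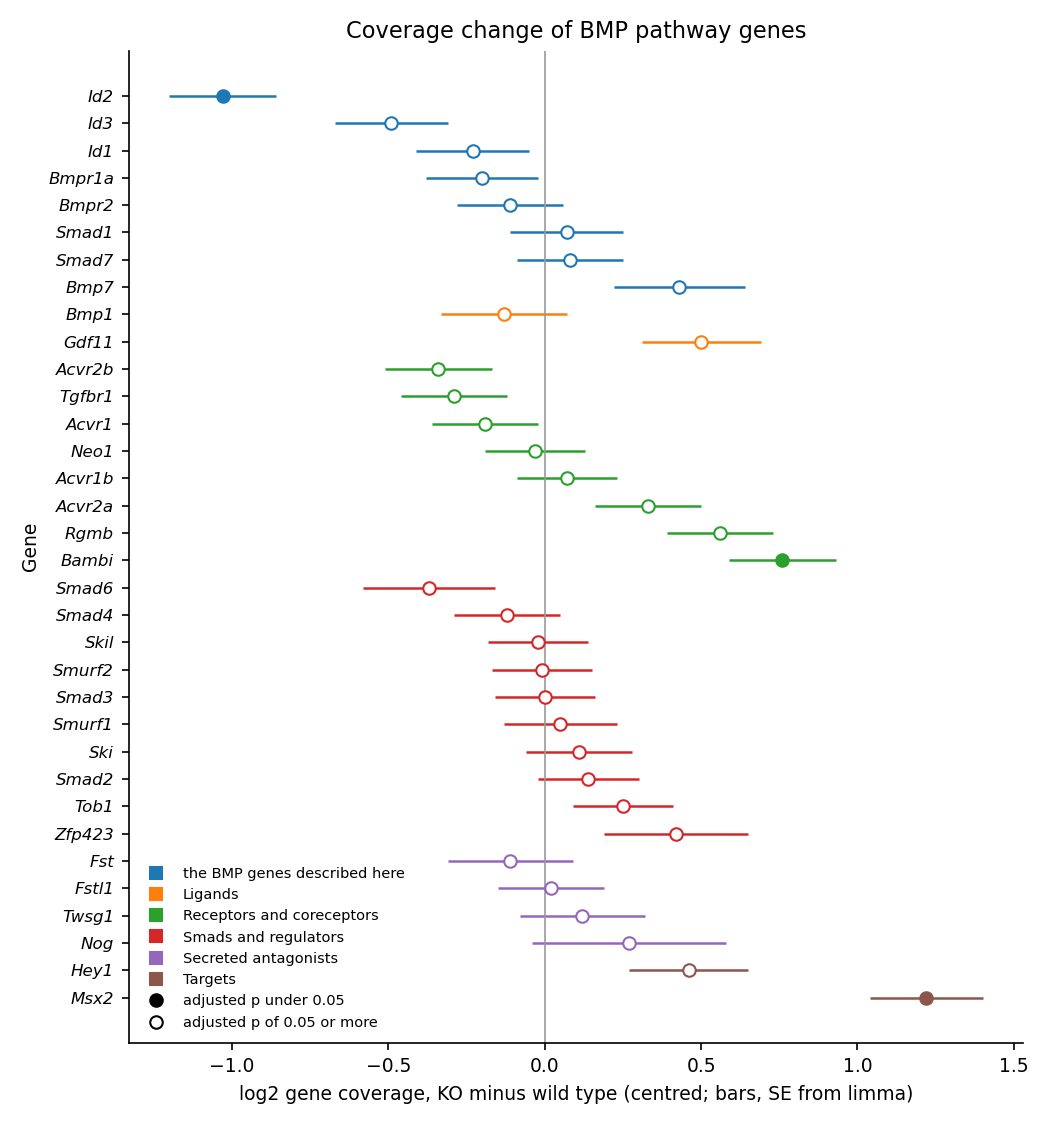
Log2 change of gene coverage, KO minus wild type, with SE from limma (x axis) for the member and pathway genes tested (y axis), coloured by role. Filled points, adjusted p under 0.05, are Id2 at -1.03, Bambi at 0.76 and Msx2 at 1.22.

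The genes whose coverage over the 4 libraries was most like that of Id2, by Euclidean distance of centred log2 coverage, were Tagln, Uchl4 and Mageh1, at distances of 0.14, 0.22 and 0.26. Tagln had wild-type coverage of 1.95 and 1.65 times the median gene and KO coverage of 1.02 and 0.890 times.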

How the data were processed

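GLORI lists of 4 libraries were used as deposited, 1 per library, grouped by sample title. Per the file headers, the authors gave each site its A plus G read count, its A read count, their ratio as a fraction, a p-value and an adjusted p-value, and the coverage signal and conversion fraction of its gene. The deposited p-value matched a one-sided binomial test of the A reads against the conversion fraction to within 6% for at least 99.99% of values below 0.0001. That test and the list minima are the known limits of the lists, and gave the lowest level that would meet them. Other filters of the caller, the aligner and the counting of molecular identifiers are not given in the sources used here. Intervals are Wilson 95% intervals and cover counting error only.

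The submitters' processing notes name mm10. Yet 85.5% of sites lay inside the lists' own protein-coding spans and 43.8% inside the GRCm38 spans of the same symbols, so positions are printed as the lists give them and no site sequence could be read. Repeated positions were collapsed. Values shared along a whole chromosome were not taken as gene values. Expected coverage was a site's coverage in the other genotype times the ratio of gene coverages; over 18839 listed sites with an expected coverage of at least 50, observed over expected had a median of 0.881 (10th to 90th percentile 0.467 to 1.48).

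Tests used R 4.3.3, edgeR 4.0.16, limma 3.58.1 and DESeq2 1.42.0 over all sites or genes, with Benjamini-Hochberg adjustment, and the scripts were tested on simulated data. Gene coverage was log2 transformed and centred on the library's median gene. Named sites were, per member, the 3 with the highest mean wild-type level among those shared with 50 reads (20 where fewer), and sites of both KO lists and no wild-type list with 50 reads in each; named pathway genes were those past the threshold. The members and lists were chosen with earlier results of these data known.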

Additional observations from a re-analysis of the deposited data

How the results depend on the processing

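Depth is one limit: each member site rests on its own coverage, and an unlisted site has no count. The number of libraries is another. With a KO library left out, absence was asked of 1 KO list only, so the share of absent sites among the 19 shared ones could not fall. It was 89.5% without KO replicate 1 and 100% without KO replicate 2. With a wild-type library left out, all sites of the remaining wild-type list with at least 20 reads were counted. Of these, 92.5% of 161 were absent from both KO lists without wild-type replicate 1, and 89.9% of 139 without replicate 2. With all 4 libraries, but sites placed by the gene the authors assigned to them, 12 shared sites were counted. Of those 12, 83.3% were absent from both KO lists. The ratio of KO to wild-type member sites was 0.877 at a coverage of at least 50 and 0.713 at a level of at least 0.3 against 1.01 at the main setting. It ran from 0.920 to 1.12 when single libraries were left out, at 0.920 without wild-type replicate 1 and 0.994 without KO replicate 1. The KO minus wild-type difference of the median level ran from -0.0419 to -0.00788 without single libraries.

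Over all genes, coverage calls ranged from 14 to 187 lower and 4 to 208 higher when a library was left out. They were 395 and 338 among genes above the lower quartile, and 101 were higher without centring. Id2 was called in 7 of 9 alternatives. The small changes of Smad1 and Smad7 turned to -0.04 and -0.03 without centring, and with single libraries left out they ran from -0.11 to 0.25 for Smad1 and from -0.04 to 0.20 for Smad7. Conversion calls over all genes were 0 to 34 higher and 0 to 6 lower with a library left out. Centring on the median gene, an alternative chosen after seeing the data, gave no call and turned Bmp7 to -0.19 and Bmpr1a to -0.32. With single libraries left out these ran from -0.23 to 0.50 (-0.09 without KO replicate 1) and from -0.02 to 0.04. Site levels gave 24 to 41 lower and 0 to 2 higher calls without single libraries. Fisher's test gave 117 and 51, and higher calls numbered 1 in limma, 11 in the likelihood ratio test and 5 in DESeq2. The cause of these differences was not tested.

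The labels do not say whether equal replicate numbers share a day or culture. Deviations of same-numbered libraries correlated at 0.0587 for site levels, -0.0276 for coverage and 0.00348 for conversion, so little shared deviation was seen. With the replicate number as a block, 540 genes had a higher and 43 a lower conversion rate, and 3 sites a higher level.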
